A study of Porphyridium purpureum with 12 samples.

Results

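Glutamine synthetase (GlnS, POR7605) and glutamate dehydrogenase (GluDH, POR3485) are the genes of ammonium assimilation that the study listed for the unicellular red microalga *Porphyridium purpureum*. They were found by their identifiers in the deposited table, 2 of 9898 genes, and their raw read counts were taken from all 12 libraries. Strain 1380/1A was grown in photobioreactors under continuous light, and mRNA was sequenced at 4 levels of residual NaNO3. These were 1.5 g/L (nitrogen-replete, NR), 0.6 g/L (nitrogen-limited, NL1), 0.5 g/L (nitrogen-limited, NL2) and 0.3 g/L (late-stage nitrogen-depleted, LND), with 3 libraries each. The levels are successive time points of the cultivation, so nitrate and culture age cannot be told apart. According to the labels, the 3 libraries of a condition were prepared from a single biological sample, so the p-values measure the spread between libraries only and not that between cultures. The study's text likewise calls them technical replicates, although its volcano plot caption names biological replicates. The SDs and p-values are therefore not read as spread between cultures. A read count is a share of a library, and a change in 1 transcript cannot be told apart from a change in total RNA per cell.

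Glutamine synthetase joins ammonium to glutamate in an ATP-dependent step, and the glutamine formed is used by glutamate synthase (GOGAT) to make glutamate from 2-oxoglutarate. This GS/GOGAT cycle is the main entry of inorganic nitrogen into amino acids in plants and algae, downstream of nitrate reductase (NaR) and nitrite reductase (NiR). Glutamate dehydrogenase interconverts glutamate with 2-oxoglutarate and ammonium, and in plants it is best known for releasing ammonium and carbon skeletons from amino acids. The study's sequence-based predictions placed GlnS in the chloroplast and GluDH in the cytosol. The identifiers put GluDH on the scaffold tagged scf295_1, which carries 8 of the 10 listed genes of nitrate uptake and assimilation and 26.5% of all genes of the table, and GlnS on scf227_4. Further genes of these enzymes, and glutamate synthase itself, were not analysed here.

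The libraries held 6398926 to 30556820 counts, and NR replicate 3 was the smallest. Libraries of 1 condition differed by more than counting error (chi-square over all genes of 11.5 to 99.1 times its degrees of freedom). The 6 photosynthesis genes used to check the labelled cell type were present in each library, at 31.8 to 4798 CPM. Levels are given as CPM, the count of a gene per 1000000 counts, with library sizes scaled by TMM (trimmed mean of M-values), which sets the bulk of genes equal between libraries. These scaling factors lay at 0.833 to 0.857 for LND and at 0.994 to 1.14 elsewhere, and with library totals alone the median log2FC of all genes moved by -0.31 between LND and NR, -0.32 between LND and NL1 and -0.29 between LND and NL2. Calls required a log2 fold change (log2FC) no smaller than 1 in either direction with an adjusted p below 0.01 in edgeR's quasi-likelihood test on the 6 libraries of each pair of conditions. All adjusted p-values of log2FC values below are from this test, with Benjamini-Hochberg adjustment over all genes tested.

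GlnS transcripts were most abundant in the nitrogen-limited cells, and their lowest mean was that of LND. The level of GlnS was 171, 169 and 141 CPM in the NR libraries, 243, 297 and 363 at NL1, 378, 416 and 396 at NL2, and 114, 155 and 128 in LND. All 6 NL libraries lay above all NR and all LND libraries, whereas NR and LND overlapped. The share of all genes that separate in this way was not counted. The means were 161 ± 16.8 CPM at NR, 301 ± 60.6 at NL1, 396 ± 19.2 at NL2 and 132 ± 21.1 at LND (SD, n = 3). In order of level, LND and NR were therefore neighbours that the test did not separate, as were NL1 and NL2. The counts behind these values were 1032 to 13117 reads, for which the 95% counting interval (exact Poisson) is at most ± 6.15% of the value, while the libraries of a condition varied by a coefficient of variation of 4.83% to 20.1%.

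GluDH transcripts were least abundant in NR and most abundant in LND. The level of GluDH was 252, 279 and 343 CPM at NR, 551, 616 and 676 at NL1, 682, 695 and 702 at NL2, and 1243, 1290.3 and 1227 at LND. The libraries of the 4 conditions did not overlap at any step, although the highest NL1 library, at 676 CPM, and the lowest NL2 library, at 682 CPM, lay close together. The test did not separate NL1 from NL2 (adjusted p = 0.68 in edgeR). How many of all genes have libraries without overlap was not counted. The means were 291 ± 46.6 CPM at NR, 614 ± 62.1 at NL1, 693 ± 10.1 at NL2 and 1253 ± 32.9 at LND (SD, n = 3). With library totals in place of TMM, the LND mean was 1055 ± 18.6 CPM and the NR mean 321 ± 63.4 CPM, so LND stayed above NR.

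**Figure D1:**
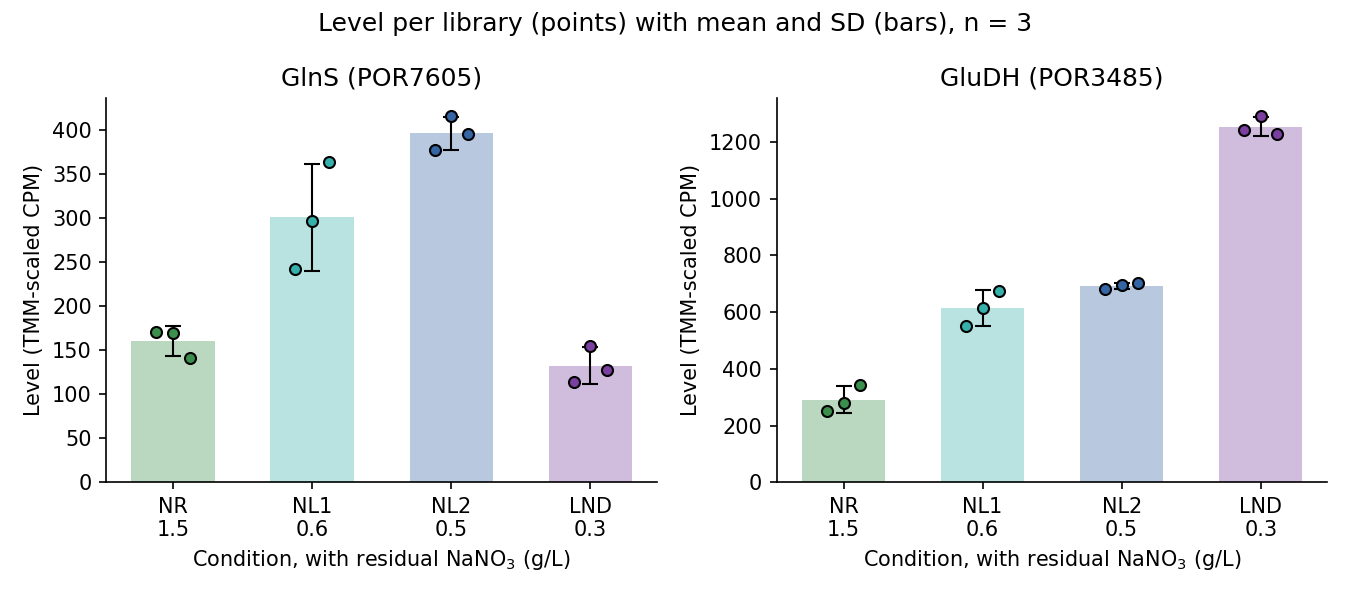
Level of GlnS (left) and GluDH (right) in TMM-scaled CPM, by condition and residual NaNO3. Points are libraries, bars are means and error bars are SD (n = 3). GlnS peaks in NL2 at 396 CPM and is lowest in LND at 132 CPM, while GluDH is lowest in NR at 291 CPM and highest in LND at 1253 CPM.

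Both genes differed among the 4 conditions in 1 test over all 12 libraries. In edgeR's quasi-likelihood test with 3 degrees of freedom, the adjusted p was 1.2e-06 for GlnS (F = 43.5, rank 779 of 9255 genes by F) and 5.1e-08 for GluDH (F = 77.0, rank 328). Such a result was common in these libraries, since 46.8% of the genes tested had an adjusted p under 0.01.

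GlnS and GluDH lay above their NR levels in all 6 nitrogen-limited libraries. In NL2 vs. NR, the log2FC was 1.29 ± 0.14 for GlnS (SE, 3 libraries each, adjusted p = 1.1e-04 in edgeR) and 1.24 ± 0.15 for GluDH (adjusted p = 2.2e-04 in edgeR). Both genes rose, where 7.33% of the genes tested were called higher. Their folds were 2.44 for GlnS and 2.36 for GluDH. In NL1 vs. NR, GluDH rose with a log2FC of 1.08 ± 0.17 (SE, adjusted p = 0.0014 in edgeR), where 6.55% of the genes were called higher. The study, which used DESeq2, reported no significant change of GluDH in this comparison. In the DESeq2 fits made here, GluDH kept its call. The cause of this difference from the study was not tested. GlnS had 0.90 ± 0.18 with a 95% interval of 0.49 to 1.32 and an adjusted p of 0.0049 in edgeR, and did not reach the minimum fold (19.8% of the genes passed the adjusted p alone). Its adjusted p in edgeR was above 0.01 as well with a replicate block (0.013), without NR replicate 1 (0.015) or 2 (0.016) and without NL1 replicate 2 (0.020) or 3 (0.019). Both NL1 values lay so close to that minimum that a single library decided the call. Without NR replicate 1 GluDH was no longer called (log2FC 0.98), without NL1 replicate 1 GlnS was called (1.04), and with library totals GluDH was at 0.9997 and not called.

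Between LND and the nitrogen-limited conditions, the log2FC of GlnS was negative and that of GluDH positive. On the log2 scale GlnS in LND fell by 1.19 ± 0.16 relative to NL1 and by 1.58 ± 0.11 relative to NL2 (SE, 3 libraries each), with adjusted p-values of 3.6e-05 and 2.9e-08 in edgeR. These values correspond to 0.440 and 0.334 of the NL levels, where 5.75% and 6.52% of the genes tested were called lower. GluDH rose in LND vs. NL1 with a log2FC of 1.03 ± 0.12 (adjusted p = 7.5e-06 in edgeR), where 6.51% of the genes were called higher. In LND vs. NL2 it had 0.86 ± 0.07 with a 95% interval of 0.70 to 1.02 and an adjusted p of 2.4e-07 in edgeR, which missed only the minimum fold (33% of the genes passed the adjusted p alone). Among all genes tested in LND vs. NL2, GlnS lay at percentile 2.30 and GluDH at percentile 90.5. The rise of GluDH in LND vs. NL1 was at the threshold too. Without NL1 replicate 1 it was 0.96 and with library totals 0.72, neither of which passed the minimum fold.

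Between the ends of the series, GluDH was called and GlnS was not. In LND vs. NR, GluDH rose with a log2FC of 2.04 ± 0.16 (SE, 3 libraries each, adjusted p = 1.1e-05 in edgeR), a fold of 4.11 at percentile 98.5, where 7.96% of the genes were called higher. GlnS had a log2FC of -0.35 ± 0.16 (adjusted p = 0.10 in edgeR), with a 95% interval of -0.70 to 0.0031, and was not called, where 11.8% of the genes were called lower. With library totals the value for GlnS was -0.66, with an adjusted p of 0.0055 in edgeR, and without NR replicate 3 it was -0.44, with one of 0.0049. It did not reach the minimum fold under any setting tried.

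The nitrogen-limited conditions were not separated by the test in either gene. In NL2 vs. NL1 the log2FC was 0.39 ± 0.15 for GlnS (95% interval 0.07 to 0.72, adjusted p = 0.52 in edgeR) and 0.17 ± 0.12 for GluDH (-0.09 to 0.43, adjusted p = 0.68). In this comparison 0% of the 9104 genes tested were called by edgeR in either direction, with 827 genes at an unadjusted p under 0.05, and DESeq2 called 0 genes higher and 2 lower.

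**Figure D2:**
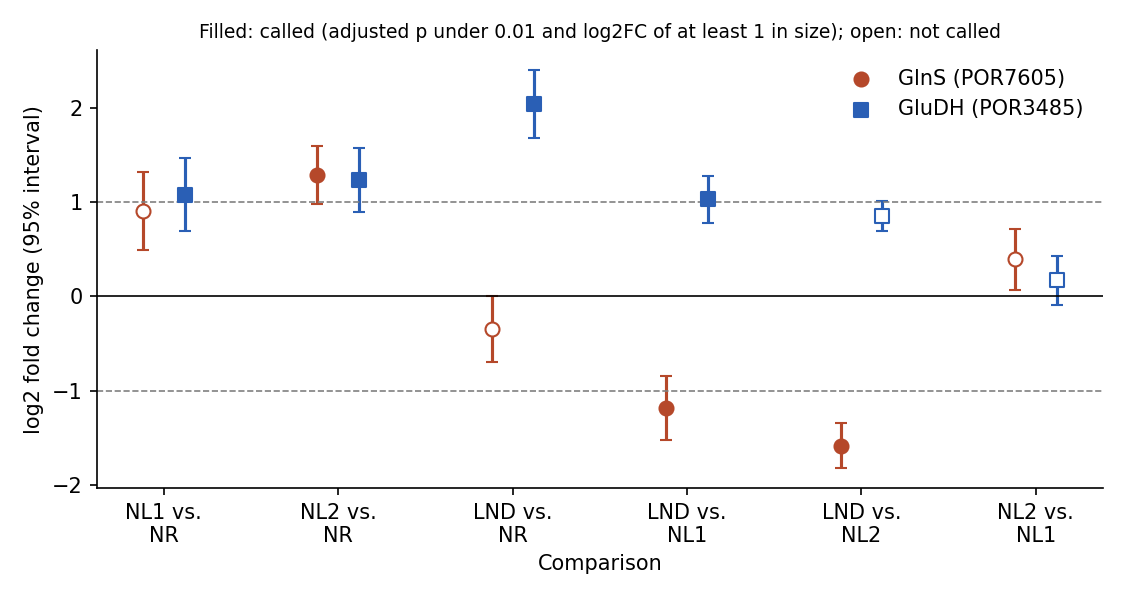
Log2 fold change of GlnS and GluDH in the 6 comparisons, with 95% intervals from edgeR's quasi-likelihood fit. Filled symbols are called and open symbols are not, and dashed lines mark log2FC values of -1 and 1. The genes lie together in NL1 and NL2 vs. NR and on opposite sides of 0 in LND vs. NL1 (-1.19 and 1.03) and LND vs. NL2 (-1.58 and 0.86).

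The ratio of GlnS to GluDH counts within a library does not depend on how libraries are scaled. It was not divided by gene length, so only its differences between conditions are read. The ratio was 0.680, 0.607 and 0.412 in the NR libraries, 0.440, 0.482 and 0.538 in NL1, 0.554, 0.598 and 0.564 at NL2, and 0.0916, 0.120 and 0.104 at LND. The NR libraries spanned the whole range of the 6 NL libraries, while the 3 LND libraries lay far below the other 9. GlnS thus made up 35.8% ± 5.89 of the reads of the pair at NR, 32.7% ± 2.22 at NL1, 36.4% ± 0.942 at NL2 and 9.53% ± 1.18 at LND (SD, n = 3). The 95% Wilson interval of a single library was 8.04% to 8.75% in LND replicate 1 and 27.7% to 30.7% in NR replicate 3, the lowest and the shallowest. These intervals cover counting error only.

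The mean log2 ratio was lower by 2.33 in LND than in NL1 and NL2 together, 0.199 of the NL ratio, with the 3 LND libraries at -3.45 to -3.05 and the 6 NL libraries at -1.18 to -0.74 (two-sided exact permutation test, p = 0.024, the smallest that 84 arrangements allow). NL1 and NL2 were pooled because 6 against 3 libraries can pass 0.05 in this test. They are separate time points, and their ratios did not overlap (0.440 to 0.538 and 0.554 to 0.598). The study assigns both to a nitrogen-limited phase but compared each separately. Over the 4 conditions, the exact permutation test of the F statistic gave p = 0.0086. Between NL and NR the difference was -0.07 (exact permutation p = 0.67). LND differed by -2.40 from NR, by -2.21 from NL1 and by -2.45 from NL2, and NL2 differed by 0.24 from NL1, each with p = 0.10, the smallest that 3 against 3 libraries allow in the exact permutation test. In NL1 vs. NR and NL2 vs. NR it was -0.19 (p = 0.50, exact permutation test) and 0.05 (p = 1.0). After Benjamini-Hochberg adjustment over these 9 exact permutation tests, p was 0.078 over the 4 conditions and 0.11 for LND vs. NL, so none passed 0.05. Without any 1 of the LND libraries the difference to NL was -2.43 to -2.23, with p = 0.071 in the exact permutation test, the smallest that is then possible.

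**Figure D3:**
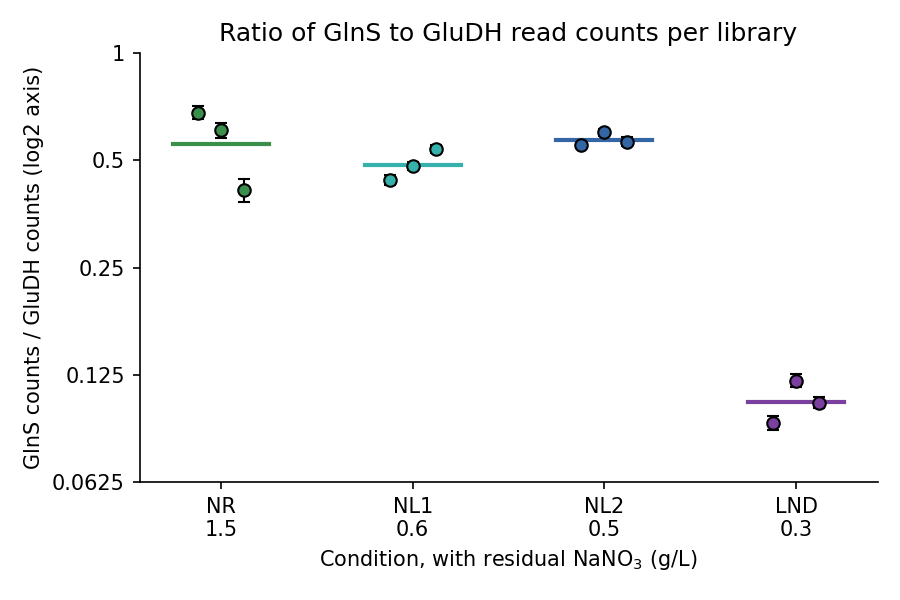
Ratio of GlnS to GluDH read counts in each library on a log2 axis, by condition and residual NaNO3. Points are libraries with 95% counting intervals, and horizontal lines are geometric means of 3 libraries. The LND libraries lie between 0.0916 and 0.120, and the other 9 libraries between 0.412 and 0.680.

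NR replicate 3 differed from the other NR libraries in both genes, in opposite directions, and it differed from them over all genes too. Over the genes that passed the count filter, its median absolute log2 difference was 0.421 from NR replicate 1 and 0.442 from NR replicate 2. That between NR replicates 1 and 2 was 0.160, and the largest within another condition was 0.239. By chi-square over its degrees of freedom, NR replicate 3 was at 84.1 and 77.6 from NR replicates 1 and 2. These 2 were at 13.3 from each other, while NL1 replicates 2 and 3 were at 99.1. NR replicate 3 is also the shallowest library, and the part of depth in its difference was not tested. On the log2 scale, the GlnS level of NR replicate 3 was lower by 0.27 than the mean of replicates 1 and 2, and its GluDH level was higher by 0.37. Its ratio of 0.412 (counting interval 0.383 to 0.443) was the lowest of the 9 libraries outside LND. Without it, the ratio difference was -2.61 in LND vs. NR and -0.17 in NL2 vs. NR. NL1 replicate 1 was the lowest NL1 library for both genes, at 243 CPM for GlnS and 551 CPM for GluDH.

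Among the 10 genes of nitrate uptake and assimilation, GlnS and GluDH were called higher in NL2 vs. NR (2 of 10, against 7.33% of all genes), and 4 were called lower (9.08% of all genes). NiR came close to a call in this comparison, with a log2FC of 0.98 ± 0.14 (SE, adjusted p = 6.4e-04 in edgeR), a fold of 1.97, and its NL2 libraries all lay above its NR libraries. The list had 3 genes called higher without NR replicate 3, without NL2 replicate 3 or with no minimum fold. GluDH was the only one called higher in NL1 vs. NR, where 3 of the 10 fell (7.92% of all genes called lower), and in LND vs. NR, where 6 fell (11.8% of all genes called lower). Other listed genes missed only the minimum fold. In NL1 vs. NR these were GlnS and NiR (NiR 0.90 ± 0.16, adjusted p = 0.0023 in edgeR), where 19.8% of all genes passed the adjusted p alone. In LND vs. NR it was the nitrate transporter gene POR6298 (0.92 ± 0.19, adjusted p = 0.0037 in edgeR). Relative to NL1, 2 of the 10 rose in LND (6.51% of all genes called higher) and 7 fell (5.75% called lower). Relative to NL2, 1 rose (6.96% of all genes called higher) and 6 fell (6.52% called lower). The median log2FC of the list was -1.39 in both LND vs. NR and LND vs. NL1, against -0.04 and -0.03 over all genes tested. The study chose this list on these libraries, so its direction is not independent evidence.

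NiR (POR2445), which reduces nitrite to ammonium, was the listed nitrogen gene most like GlnS. Pearson's r was 0.877 over the 12 libraries, at rank 230 of 9252 genes. Its level was 425 ± 42.5 CPM at NR, 792 ± 69.0 at NL1, 845 ± 69.1 at NL2 and 162 ± 20.8 at LND (SD, n = 3). On the log2 scale NiR in LND fell by 2.29 ± 0.13 relative to NL1 and by 2.39 ± 0.11 relative to NL2 (SE, adjusted p = 1.3e-08 and 2.3e-10 in edgeR). Relative to NR, where GlnS was not called, NiR fell by 1.46 ± 0.15 (adjusted p = 5.0e-05 in edgeR). The within-library ratio of GlnS to NiR counts, which was added after the values of both genes were seen, was 0.383 ± 0.0735 at NR, 0.379 ± 0.0524 at NL1, 0.471 ± 0.0494 at NL2 and 0.829 ± 0.180 at LND (SD, n = 3), with the lowest LND library at 0.690 and the highest other library at 0.515. The NaR genes POR6787 and POR8251 had log2FC values of 0.29 ± 0.19 and -0.10 ± 0.20 in NL1 vs. NR, where they were not called. Between LND and NR their log2FC was -2.70 ± 0.24 and -2.88 ± 0.23 (SE, adjusted p = 2.2e-05 and 1.1e-05 in edgeR), and that of the third NaR gene, POR3077, was -1.32 ± 0.30 (adjusted p = 0.0056).

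NRT2.5 genes encode high-affinity nitrate transporters, which import nitrate, and their courses were not alike. In LND vs. NR, POR8948 had a log2FC of -4.37 ± 0.28 and was called, whereas POR7993 had -0.81 ± 0.26 and was not. POR1427 was the nitrogen gene least like GluDH (r = -0.973 over the 12 libraries, and -0.024 with GlnS), with 59.1 ± 9.05 CPM at NR, 12.8 ± 1.21 at NL1, 11.3 ± 0.699 at NL2 and 4.18 ± 1.35 at LND (SD, n = 3). POR6298 was the nitrogen gene least like GlnS (r = -0.896, and 0.219 with GluDH), with 30.4 ± 6.71 CPM at NR, 7.99 ± 1.93 at NL1, 9.25 ± 0.771 at NL2 and 60.7 ± 5.00 at LND. It was also the only nitrogen gene other than GluDH that rose in LND vs. NL1, with a log2FC of 2.93 ± 0.19 (SE, adjusted p = 3.9e-08 in edgeR).

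**Figure D4:**
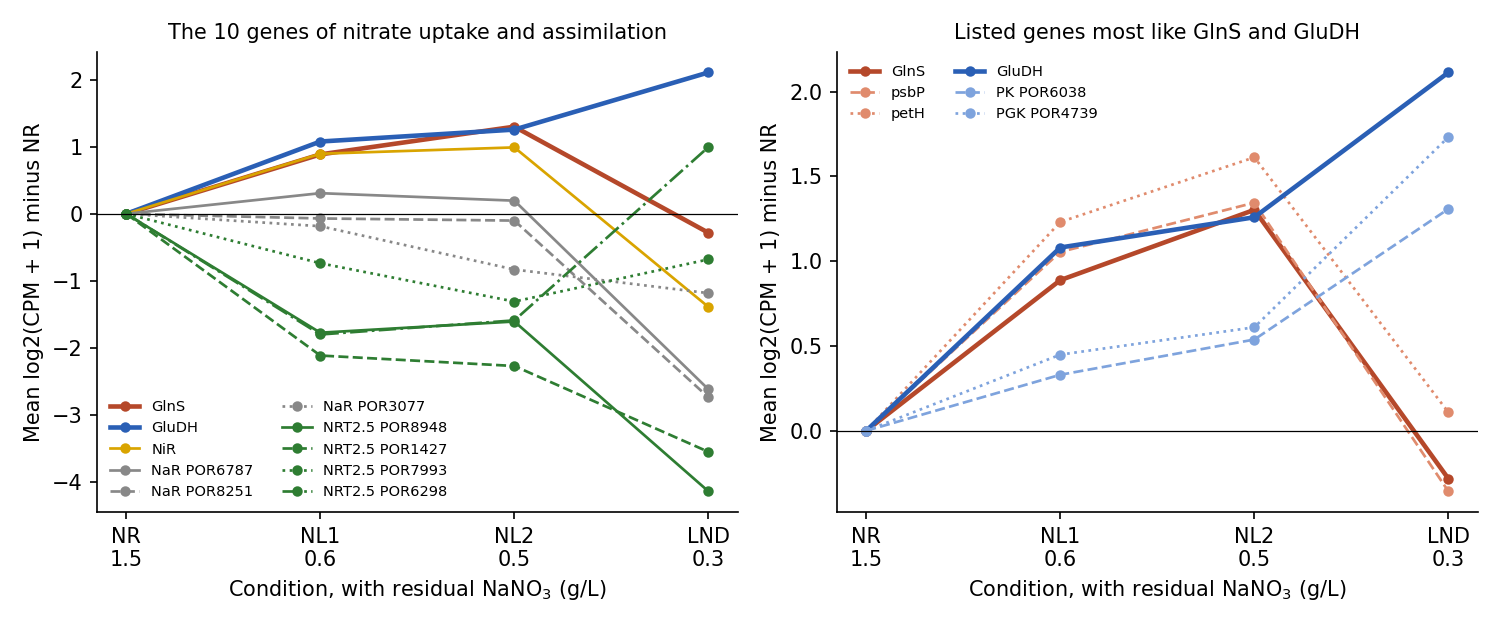
Mean log2(CPM + 1) of each condition minus that of NR (3 libraries per condition) for the 10 genes of nitrate uptake and assimilation (left) and for GlnS with its 2 most similar photosynthesis genes and GluDH with its 2 most similar glycolysis genes (right). GlnS follows NiR, psbP and petH up in NL1 and NL2 and down in LND. GluDH, PK POR6038 and PGK POR4739 are each highest in LND. In NL2 they lie 1.26, 0.54 and 0.61 above NR.

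Likeness of courses was measured by Pearson's r of log2(CPM + 1) over the 12 libraries, among 9252 other genes. The 12 points share 4 conditions and their depth, so r mainly compares the relative spacing of 4 condition means and is given as a description. Between GlnS and GluDH r was -0.05. GlnS was most like POR3147 (r = 0.991), POR3882 (0.983), POR1815 (0.978), POR5392 (0.972) and POR5985 (0.970), and least like POR8898 (-0.971). POR3147 had 13.1 ± 3.51 CPM at NR, 43.0 ± 16.4 at NL1, 61.0 ± 5.02 at NL2 and 10.2 ± 2.74 at LND (SD, n = 3).

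The study's photosynthesis list holds 13 genes, of which 12 rose in NL2 vs. NR, where 7.33% of all genes were called higher, and 11 fell in LND vs. NL2, where 6.52% were called lower. It was chosen on these same libraries, so these counts are not independent evidence of a direction. Their median r was 0.82 with GlnS (range 0.40 to 0.96) and 0.39 with GluDH (-0.11 to 0.86), against -0.02 and 0.06 over all genes. The closest to GlnS were psbP (POR2049), with r = 0.961 and rank 9, and petH (POR1681), the ferredoxin-NADP reductase, with r = 0.935 and rank 47. POR2049 is annotated by the study as an oxygen-evolving enhancer of photosystem II or a PsbP-like protein. PetH had 415 ± 91.2 CPM at NR, 976 ± 215 at NL1, 1252 ± 45.4 at NL2 and 441 ± 19.5 at LND (SD, n = 3), rose in NL1 and NL2 vs. NR (1.23 ± 0.22 and 1.58 ± 0.17, SE, adjusted p = 0.0024 and 1.3e-04 in edgeR) and fell in LND by 1.15 ± 0.15 relative to NL1 and by 1.50 ± 0.08 relative to NL2 (adjusted p = 2.3e-05 and 1.1e-09). Ferredoxin (petF, POR8201), the electron donor of NiR and of the ferredoxin-dependent glutamate synthase, had r = 0.793 with GlnS and -0.114 with GluDH. PetF fell by 1.10 ± 0.15 in LND vs. NL1 (adjusted p = 5.1e-05 in edgeR), while in NL1 vs. NR it had a log2FC of 0.83 ± 0.18 that was not called. The photosynthesis genes most like GluDH were petC (POR2665), the Rieske subunit of the cytochrome b6f complex, with r = 0.863, and the light-harvesting gene LHCA1 (POR2835), with r = 0.542.

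By the same measure GluDH was most like POR3812 (r = 0.990), POR8160 (0.989), POR2276 (0.987), POR6603 (0.986) and POR7127 (0.984), and least like POR6702 (-0.990). POR6603 is annotated by the study as a glycogen phosphorylase, an enzyme that releases glucose-1-phosphate from storage glucans, and had 425 ± 36.5 CPM at NR, 651 ± 23.9 at NL1, 693 ± 29.3 at NL2 and 1159 ± 85.6 at LND (SD, n = 3). The study also chose its 20 glycolysis genes on these libraries, so their counts are not independent evidence of a direction. In LND vs. NR, 11 rose and 3 fell, where 7.96% of all genes were called higher and 11.8% lower. In LND vs. NL2, 5 rose and 4 fell, where 6.96% of all genes were called higher and 6.52% lower. Their median r was 0.73 with GluDH (-0.91 to 0.94) and 0.19 with GlnS (-0.43 to 0.92). The closest to GluDH were pyruvate kinase (PK, POR6038), which makes pyruvate from phosphoenolpyruvate, with r = 0.945, and the phosphoglycerate kinase gene PGK POR4739 with r = 0.940. PGK POR4739 rose by 1.66 ± 0.15 on the log2 scale in LND vs. NR (SE, adjusted p = 3.0e-05 in edgeR) and in LND vs. NL1 with 1.28 ± 0.13 (adjusted p = 2.9e-06). In NL2 vs. NR, where GluDH was called, PK (0.53 ± 0.13, adjusted p = 0.011 in edgeR) and PGK POR4739 (0.59 ± 0.15, adjusted p = 0.012) were not. Neither was called in NL1 vs. NR. The closest glycolysis genes to GlnS were the other phosphoglycerate kinase gene, POR3748 (r = 0.916), and the fructose-1,6-bisphosphatase gene POR7711 (r = 0.915). PGK POR3748 fell by 1.26 ± 0.17 in LND vs. NL1 (SE, adjusted p = 3.2e-05 in edgeR), so in this comparison the 2 PGK genes changed in opposite directions.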

How the data were processed

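The authors aligned mRNA reads with STAR 2.7.8a (default parameters) and assigned them to version 2 gene models of *P. purpureum* with featureCounts 2.0.1 (feature type gene), and deposited unnormalized counts. The strand setting is not given in the sources used here, so overlapping genes may share reads. All 12 columns were matched to the labels (0 unmatched), and the label ND was taken as LND. In edgeR 4.0.16, run under R 4.3.3, a fit was made for each pair of conditions after TMM scaling and filterByExpr (minimum count 10). The SE is the log2FC divided by the square root of F, in size. DESeq2 1.42.0, other scalings, no filter, 1 joint fit, a replicate block, no minimum fold and leaving out each library were the alternatives. Log2 ratios were compared by exact permutation tests. The fits were tested on simulated data. The named genes were the members, the rest of the nitrogen list, petF and petH, the 5 most and the 1 least similar gene per member, and the 2 most similar genes per member from the photosynthesis and glycolysis lists. The members and lists were chosen with earlier results of these data known, and the lists were copied from the study's tables.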

Additional observations from a re-analysis of the deposited data

How the results depend on the processing

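Of 168 recomputed log2FC values of GlnS and GluDH, 161 kept their direction and their side of the threshold. All 46 tests of any change over the 4 conditions stayed on their side of the threshold used for them. For the genes this was an adjusted p under 0.01. The 12 such tests of the ratio, each without 1 library, used an unadjusted p under 0.05 (0.00019 to 0.0145, exact permutation test). Of the counts of called nitrogen genes, 84 of 84 stayed within 1.5 times the value reported. With library totals in place of TMM, GluDH lost its call in NL1 vs. NR (log2FC 0.9997) and in LND vs. NL1 (0.72), and the cause was not tested. Without a minimum fold, GlnS was called in NL1 vs. NR (0.90) and GluDH in LND vs. NL2 (0.86). Over the fits without 1 library, GluDH ran from 0.98 to 1.21 in NL1 vs. NR and from 0.96 to 1.12 in LND vs. NL1, and GlnS from 0.75 to 1.04 in NL1 vs. NR. The log2 ratio of GlnS to GluDH in LND vs. NL was -2.39 with medians (exact permutation p = 0.071), -2.33 with a replicate block (exact permutation p = 0.25, the smallest that 3 pairs allow) and -2.43 to -2.23 without 1 library. Differences near 0 changed sign: NL vs. NR ran from -0.29 to 0.075 and NL2 vs. NR from -0.17 to 0.19 without 1 library, and NL2 vs. NR was -0.10 with medians, with exact permutation p-values of 0.20 to 0.79 for the reversed values. Same-numbered libraries were taken as unpaired, because their deviations correlated at -0.33 to 0.12 with 1 of 18 pairs over 0.1, and the replicate block changed no call of GlnS or GluDH. Between differently numbered libraries the highest correlation was 0.24 (NL2 replicate 1 with LND replicate 3). The check therefore concerns the numbering only and not whether libraries share structure in another way. Over all genes, LND vs. NR had 386 called higher and 1588 lower with library totals and 839 and 1335 without NR replicate 3, against 728 and 1078. With library totals LND vs. NL1 had 333 higher and 1074 lower (589 and 520 with TMM), and LND vs. NL2 had 377 and 1073 (628 and 589 with TMM). Depth limited no value of the members, which held at least 1032 reads.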
